A study of Mus musculus with 18 samples.

Results

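Regulatory T (Treg) cells, a Foxp3-expressing kind of CD4+ T cell that restrains immune responses, were profiled by poly(A) RNA sequencing after fresh sorting from 6 organs of mice. The account below covers 30 genes of sterol and fatty acid synthesis, given as a list of mouse symbols and matched to the Ensembl gene IDs of the tables, out of 55487 genes in each table. By role, 7 of them encode enzymes from acetoacetyl-CoA to farnesyl diphosphate, 10 encode enzymes from squalene synthesis to cholesterol, 5 regulate or move sterols, and 8 make, elongate or desaturate fatty acids. The 6 groups are Treg cells from peripheral blood, bone marrow, lung, liver, lymph node and spleen; each has 3 libraries, which makes 18. All of them are labelled wild-type, with no treatment and CD4+Foxp3+. The sex and age of the mice, the number of animals pooled in a library, the sorting gates and the way each organ was made into single cells are not given in the sources used here. Nothing says that the libraries of an organ came from separate animals or sorts, so p-values measure the spread between these libraries, which may be technical.

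Cholesterol is built from acetyl-CoA through mevalonate, isoprenoid diphosphates, squalene and lanosterol. Fatty acids are built from cytosolic acetyl-CoA through malonyl-CoA, and are then elongated and desaturated. Most genes of both routes are targets of the SREBP transcription factors (genes Srebf1 and Srebf2), which are held in the endoplasmic reticulum by Insig proteins when sterols are plentiful. In T cells these routes are known for supplying membrane lipid during growth and division, and in Treg cells mevalonate products are known to be needed for suppressive function.

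Promoter sequence is shown for 3 genes that were higher in both liver and lung Treg cells than in lymph node Treg cells (Hmgcs1, Insig1 and Cyp51), because they moved together across organs, and for Elovl6, which was far higher in lung. The sequences come from the RefSeq promoter table (build GRCm38.p6, the mm10 assembly), run 5′ to 3′ on the gene's strand, and stop before the first annotated exon base. The Hmgcs1 stretch lies at chr13:119690101-119690350 on the plus strand, that of Insig1 at chr5:28071162-28071362 on the plus strand, that of Cyp51 at chr5:4104747-4104947 on the minus strand, and that of Elovl6 at chr3:129532136-129532256 on the plus strand. Capitals mark CCAAT (the NF-Y motif, which reads as ATTGG where it lies on the other strand), TCACNCCAC (a sterol response element form bound by SREBPs) or CACGTG (the E-box).
Hmgcs1: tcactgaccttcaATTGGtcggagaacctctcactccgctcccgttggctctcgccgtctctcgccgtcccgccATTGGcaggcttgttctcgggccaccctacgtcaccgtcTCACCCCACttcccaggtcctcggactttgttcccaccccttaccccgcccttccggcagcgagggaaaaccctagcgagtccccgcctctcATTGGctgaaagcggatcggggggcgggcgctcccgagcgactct
Insig1: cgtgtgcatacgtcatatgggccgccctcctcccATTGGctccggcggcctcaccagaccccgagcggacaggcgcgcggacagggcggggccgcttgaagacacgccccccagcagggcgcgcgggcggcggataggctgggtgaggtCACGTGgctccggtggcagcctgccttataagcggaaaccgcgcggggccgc
Cyp51: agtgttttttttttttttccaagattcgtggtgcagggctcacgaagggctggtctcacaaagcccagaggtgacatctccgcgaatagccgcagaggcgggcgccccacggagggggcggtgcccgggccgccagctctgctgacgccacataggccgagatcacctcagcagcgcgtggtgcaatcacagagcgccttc
Elovl6: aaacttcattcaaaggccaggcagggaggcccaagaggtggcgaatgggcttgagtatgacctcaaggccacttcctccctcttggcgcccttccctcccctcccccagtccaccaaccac
The Hmgcs1 stretch holds 3 CCAAT matches and 1 TCACNCCAC match, and the Insig1 stretch holds 1 CCAAT match and 1 CACGTG match. The Elovl6 stretch stopped at an annotated exon of another gene, Gm35986, so 129 bases nearer to Elovl6 are not shown. In the stretches of Cyp51 and Elovl6 none of the 3 motifs was found in these letters. Other forms of the sterol response element were not searched, so this does not show that they lack one. Windows from 250 bases before to 50 after the start were in the table for 23 of the 30 genes. Counting either strand, 19 of these 23 windows (82.6%) held CCAAT, against 41.1% of the 27025 genes in the table. TCACNCCAC was in 1 of 23 (4.35%, against 1.44% of genes), and CACGTG in 4 of 23 (17.4%, against 8.09%), namely those of Dhcr7, Hsd17b7, Insig1 and Sc5d. These are matches of letters and were not tested for binding.

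The authors deposited TPM (transcript abundance), a length-normalized abundance scaled to a common total, so a TPM is a share of a library's RNA and its sequencing depth is unknown. Between 14314 and 19797 genes per library had a value above 0, with the fewest in liver. The Treg label held by its defining gene Foxp3, which averaged between 88.7 TPM in blood and 238.5 TPM in lymph node. Treg genes were uneven between organs: the summed level of 8 of them averaged from 725.9 TPM in blood to 3594.5 TPM in lung. Il2ra, 1 of the 8, averaged from 57.1 TPM in bone marrow to 233.7 TPM in lymph node. RNA of other cell types was also present and unequal between organs. The summed level of 16 myeloid marker genes was 36.6 to 88.4 TPM in the lymph node libraries, 1635 to 1737 TPM in lung, 26481 to 27476 TPM in blood and 47471 to 47801 TPM in bone marrow, where neutrophil genes such as S100a8 led. The summed level of 20 T cell genes fell the other way, from a mean of 9379 TPM in lymph node to 4215 TPM in blood. A lower TPM in blood can therefore not be told apart from dilution by other RNA, and in bulk RNA fewer cells of a type and less RNA per cell cannot be told apart. Tests used limma on log2(TPM + 1) over all 18 libraries, with Benjamini-Hochberg adjustment over all 16694 genes tested, and a gene was called at an adjusted p under 0.05. Fold changes below are differences on that scale, with their standard error (SE), and understate the change of low genes. Where groups of a called gene are said not to overlap, this describes values of a gene picked by its call. The share of all genes without overlap was not counted. Values after scaling each library to its 20 T cell genes are given where that scaling changed a call or a direction. This scale takes these genes to be equally expressed by Treg cells of all organs, which was not tested. The 20 did not move as 1: in lung against lymph node 4 were higher and 16 lower. It is thus an alternative scale and not a correction for other RNA.

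**Figure D1:**
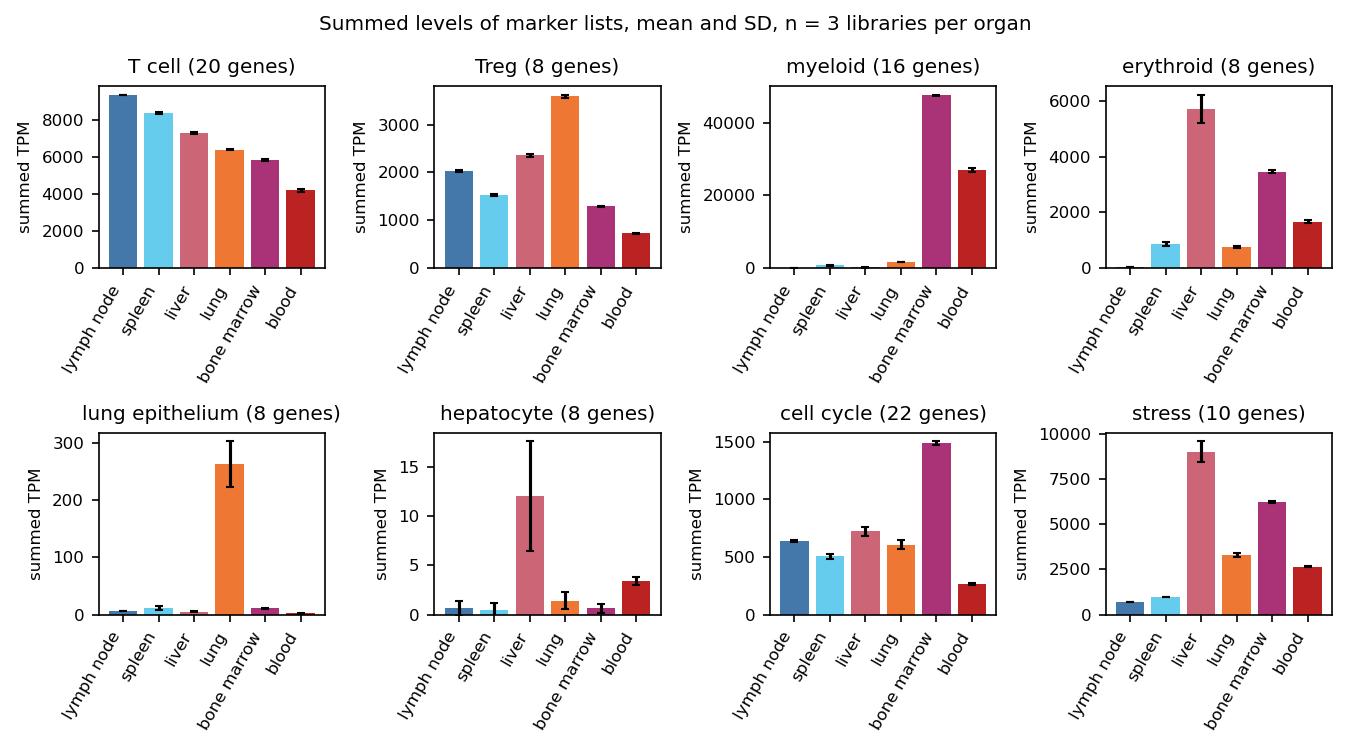
Summed TPM of 8 marker lists by organ (bars, mean over 3 libraries; error bars, SD), each panel with its own axis from 0; the stress list holds 10 immediate early and heat shock genes. T cell genes go down from lymph node (9379 TPM) to blood (4215 TPM), while myeloid genes reach 47587 TPM in bone marrow and 27007 TPM in blood.

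All 30 genes passed the filter on low values, which asked 1 organ or more to reach a mean of 1 TPM. Fads2 passed it through bone marrow and blood alone, the organs where it was high. Its p-values and calls below therefore describe its values and add no support. The summed level of the 30 genes was highest in lung (943.5 ± 28.5 TPM, SD, n = 3) and lowest in blood (658.3 ± 8.76 TPM, n = 3). Lymph node had 782.1 ± 5.32 TPM, spleen 755.5 ± 5.82, bone marrow 759.9 ± 7.82 and liver 850.2 ± 44.5 (SD, n = 3 each). The libraries of lung and of blood did not overlap with those of any other organ in this sum. Mvk and Elovl6 weighed heavily in lung, with means of 126.5 and 57.4 TPM there. Elsewhere their highest organ means were 12.95 TPM (Mvk, spleen) and 6.29 TPM (Elovl6, liver). The lung sum thus does not stand for the 30 genes as a set. The moderated F test over the 6 organs called 25 of the 30 genes, and it called 68% of all genes tested. The 5 that did not pass were Lss (lanosterol synthase), Nsdhl and Ebp (enzymes that remodel the sterol ring), Acat2 (which makes acetoacetyl-CoA from acetyl-CoA) and Srebf1, with adjusted p-values from 0.124 to 0.53 (limma). Acat2, Lss and Nsdhl passed in none of the 9 pairwise comparisons either. The F statistic was greatest for Scd2, Cyp51, Mvk, Insig1, Fads2 and Elovl6.

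Between organs the genes did not share 1 order. Liver had the highest mean for 9 of the 30 genes, lymph node and bone marrow for 6 each, lung for 4, spleen for 3 and blood for 2, whereas blood had the lowest mean for 13. By the mean over all 18 libraries the most abundant of the 30 was Acly, the ATP citrate lyase that makes cytosolic acetyl-CoA, with organ means from 93.4 TPM in lung to 125.4 TPM in bone marrow. The regulators Srebf2 (69.8 TPM in blood to 96.5 TPM in liver) and Srebf1 (55.5 TPM in liver to 84.5 TPM in lymph node) came next. Single organs differed from this order: Mvk, at 126.5 TPM, was above Acly in lung, and Insig1, at 90.8 TPM, was above Srebf1 in liver. The median coefficient of variation between libraries, over the 29 genes with at least 1 TPM in every library, was 5.80% in lymph node, 6.02% in blood, 9.92% in bone marrow, 13.2% in spleen, 18.7% for lung and 23.6% for liver. Values from liver and lung were thus the least precise. Fads2, the delta-6 desaturase, was the 1 gene below 1 TPM in some libraries.

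**Figure D2:**
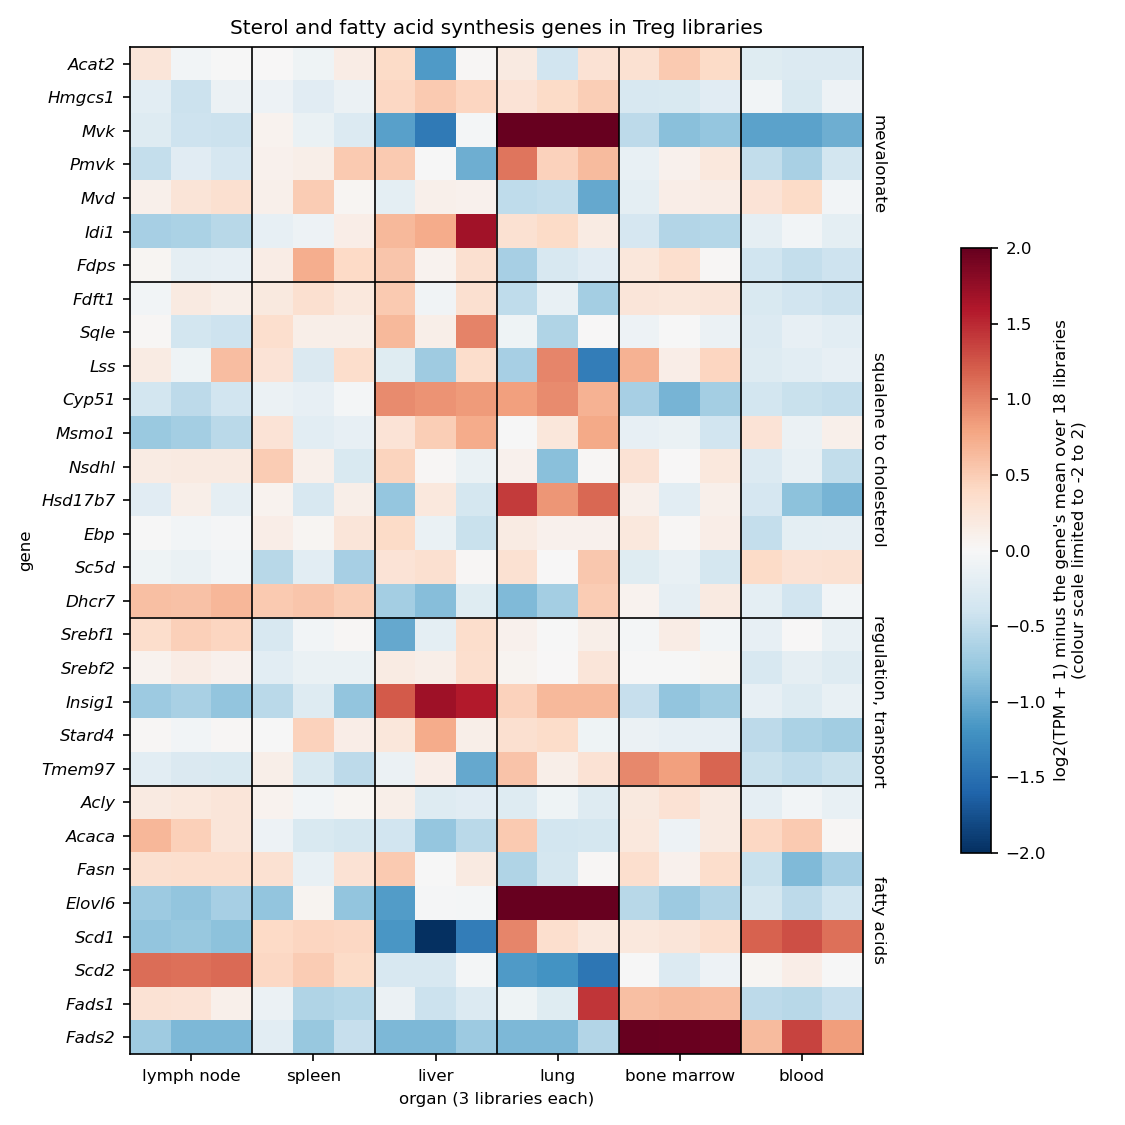
Level of each of the 30 genes in each of the 18 libraries, as log2(TPM + 1) minus the gene's mean over all libraries; red is higher, blue is lower, and the scale stops at 2 in either direction. Mvk and Elovl6 stand out in the 3 lung libraries and Fads2 in the 3 bone marrow libraries, whereas Scd2 is highest in lymph node.

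Lung Treg cells had more calls against lymph node Treg cells than any other organ. Lymph node is the reference here because its libraries held the least myeloid RNA. Higher in lung were 11 of the 30 genes, against 14.9% of all genes, and lower were 6, against 27.4% of all genes. The median change of the 30 was 0.09 on the log2 scale, beside a median of -0.20 over all genes. Of the 7 genes up to farnesyl diphosphate, 4 were higher and 1 lower, and of the 10 later sterol genes 4 were higher and 2 lower. Of the 8 fatty acid genes, 2 were higher and 3 lower.

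Mvk, the mevalonate kinase (ENSMUSG00000041939, chr5:114444269-114460591, plus strand), had 126.3, 138.9 and 114.2 TPM in the lung libraries. In the other 15 libraries it lay between 4.67 and 14.78 TPM, with 11.52, 10.26 and 10.22 TPM in lymph node. All 3 lung libraries were thus far above every other library, and the lung mean was 9.77 times that of the next organ, spleen. Lung exceeded lymph node by 3.45 ± 0.25 (SE; limma adjusted p = 1.63e-08). The window upstream of Mvk starts at chr5:114444019, inside an exon of Mmab (chr5:114431034-114444060), so no stretch before an exon could be shown. Only the far end of the window lies in Mmab, the neighbouring gene on the other strand, whose organ means were 2.62 to 11.4 TPM. Pmvk, the next kinase of the route, had 40.57, 26.28 and 29.94 TPM in lung against 13.24, 15.92 and 14.80 in lymph node, a difference of 1.07 ± 0.28 (SE; limma adjusted p = 0.00596). Mvd, the decarboxylase that follows, went the other way, with 9.04, 9.29 and 6.0 TPM in lung against 14.31, 16.13 and 16.74 TPM, a change of -0.90 ± 0.19 (SE; limma adjusted p = 0.00113) that did not pass with T cell scaling. The 3 consecutive enzymes therefore did not move together, and the groups did not overlap for any of them.

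Elovl6, which elongates palmitate to stearate (ENSMUSG00000041220, chr3:129532355-129638495, plus strand), had 56.12, 51.73 and 64.34 TPM in lung. Every other library had between 3.17 and 8.41 TPM, with 4.48, 4.22 and 4.74 TPM in lymph node. The lung mean was 9.13 times that of the next organ, and lung exceeded lymph node by 3.41 ± 0.27 (SE; limma adjusted p = 5.25e-08). Fasn, the fatty acid synthase that makes the palmitate, was lower in lung, at 28.30, 33.62 and 44.17 TPM against 54.25, 54.71 and 55.08 TPM. That change of -0.64 ± 0.18 (SE; limma adjusted p = 0.00846) no longer passed with T cell scaling or with median of ratios scaling (-0.42). Hsd17b7, a ketosterol reductase, had 11.62, 7.87 and 9.67 TPM in lung and at most 4.59 TPM in any other library, and exceeded lymph node by 1.24 ± 0.26 (SE; limma adjusted p = 0.00126).

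Scd1 and Scd2, stearoyl-CoA desaturases that make oleate, lie near each other on chromosome 19 (chr19:44394455-44407879, minus strand, and chr19:44293674-44306864, plus strand) and differed from lymph node in opposite directions in lung. Scd2 had 11.19, 10.65 and 8.84 TPM in lung against 56.70, 56.50 and 57.87 TPM in lymph node, a change of -2.38 ± 0.11 (SE; limma adjusted p = 1.04e-10). Scd1 had 31.92, 20.05 and 18.49 TPM in lung against 8.69, 8.89 and 8.53 TPM, a change of 1.30 ± 0.23 (SE; limma adjusted p = 2.34e-04). Lymph node was the 1 organ with Scd2 above 50 TPM, and lung the 1 organ with Scd2 below 12 TPM in all libraries. Dhcr7, the last enzyme of the route to cholesterol, was lower in lung by mean (-0.97 ± 0.27, SE; limma adjusted p = 0.00799) but did not pass with T cell scaling or in the fit of both organs alone. Lung library 3 had 26.75 TPM of it, close to the 28.38 to 30.02 TPM of lymph node, while the other lung libraries had 9.62 and 11.19 TPM. Less firm were Sc5d (0.38 ± 0.14, SE), which lost its call in 11 of 18 fits that left out 1 library and fell to 0.25 without lung replicate 3 (limma adjusted p = 0.184), and Fdft1. The squalene synthase gene Fdft1 changed by -0.53 ± 0.16 (SE; limma adjusted p = 0.017), lost its call without lymph node replicate 2 or 3 or lung replicate 3 (limma adjusted p up to 0.0688), and had 0.05 with T cell scaling. It also overlaps Ctsb, an abundant gene on the other strand (146.6 to 333.7 TPM by organ). Acly changed by -0.41 ± 0.09 (SE; limma adjusted p = 0.00149), but by 0.22 with T cell scaling.

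On the T cell scale, where 16969 genes passed the filter, 16 of the 30 genes were higher in lung, against 30.4% of all genes, and 1, Scd2, was lower, against 9.31%. At the same time the median over all genes moved from -0.20 to 0.22 and that of the 30 genes from 0.09 to 0.68. Beside these changes, 8 lung epithelium markers summed to 230.4 to 307.6 TPM in lung and 6.41 to 7.05 TPM in lymph node, with 6 of 8 against 1 of 8 at a mean of 1 TPM or more. Among them, Scgb1a1 and Sftpc, of club and alveolar type II cells, averaged 225.3 and 20.1 TPM in lung and were listed at 0 in lymph node. Scgb1a1 thus made up most of the lung sum. Of the 6 markers tested, 4 were called higher in lung and 0 lower. Epcam, a general epithelial marker of the list, was lower by mean in lung (4.02 TPM) than in lymph node (6.62 TPM). The other tested markers of this list passed the filter on low values through lung alone. Their calls therefore describe their values and add no support. Myeloid markers at that level numbered 16 of 16 in lung and 8 of 16 in lymph node. Of 22 cell cycle genes, 13 were lower and 1 higher in lung. The part of these other cells and of cycling cells in the lung values was not tested.

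Liver Treg cells had 6 genes higher than lymph node Treg cells, against 9.45% of all genes, and 6 lower, against 21.6% of all genes. The genes that were higher serve sterol synthesis or its regulation: Hmgcs1, Idi1, Sqle, Cyp51, Msmo1 and Insig1. The genes that were lower were mostly of the fatty acid branch: Scd1, Scd2, Acaca and Acly, beside Dhcr7 and Srebf1. The median change of the 30 was -0.05, and that of all genes -0.19.

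Insig1, which retains SREBPs in the endoplasmic reticulum and is itself an SREBP target (ENSMUSG00000045294, chr5:28071363-28078662, plus strand), had 73.81, 102.8 and 95.83 TPM in liver against 18.47, 19.38 and 17.62 TPM in lymph node. The change of 2.22 ± 0.15 (SE; limma adjusted p = 1.50e-08) was the greatest among the 30 genes in this comparison, and the liver mean was 1.92 times that of lung, the next organ. Idi1, which isomerizes isopentenyl diphosphate (chr13:8885501-8892451, plus strand), had 30.56, 32.73 and 63.54 TPM in liver against 11.73, 11.95 and 12.72 TPM, a change of 1.64 ± 0.20 (SE; limma adjusted p = 1.91e-05). Without liver replicate 3, whose value was the highest of all libraries, the change remained 1.31. Sqle, the squalene epoxidase, had 15.73, 10.61 and 20.24 TPM against 9.87, 7.27 and 7.01 TPM, a change of 0.84 ± 0.21 (SE; limma adjusted p = 0.007) that did not pass in the fit of both organs alone. None of these groups overlapped.

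Lower in liver with no overlap was Scd2, at 20.36, 20.39 and 24.87 TPM (-1.35 ± 0.11, SE; limma adjusted p = 2.72e-07). Dhcr7 had 11.22, 9.90 and 15.56 TPM against 28.67, 28.38 and 30.02 TPM (-1.21 ± 0.27, SE; limma adjusted p = 0.00277). Acaca, the acetyl-CoA carboxylase that makes malonyl-CoA, had 5.49, 3.96 and 4.86 TPM against 12.49, 10.86 and 9.0 TPM (-1.03 ± 0.24, SE; limma adjusted p = 0.00352). Scd1 was lowest in liver of all organs, at 6.51, 2.64 and 5.41 TPM. Its change of -0.79 ± 0.23 (SE; limma adjusted p = 0.0139) shrank to -0.48 without liver replicate 2 (limma adjusted p = 0.0511). Srebf1 spread widely in liver, with 30.56, 54.94 and 80.85 TPM against 80.84 to 88.08 TPM in lymph node, and its change of -0.70 ± 0.23 (SE; limma adjusted p = 0.0263) shrank to -0.34 without liver replicate 1 (limma adjusted p = 0.0776) and lost its call without any 1 of the lymph node libraries. Srebf1 overlaps Rai1 on the other strand, which had 18.4 to 41.2 TPM by organ. With T cell scaling 10 genes were higher, against 15.9% of all genes, and 3 lower, against 8.13%, and the calls of Scd1, Srebf1 and Acly were among those lost. The median over all genes moved from -0.19 to 0.002.

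Hepatocyte RNA in the liver libraries was low: 8 hepatocyte markers summed to 6.28 to 17.4 TPM, with albumin (Alb) at a mean of 5.39 TPM, against 0 to 1.44 TPM in lymph node. Red cell and precursor markers summed to 5271 to 6274 TPM in liver against 37.7 to 40.8 TPM in lymph node. The 10 immediate early and heat shock genes, a list written after values were seen, summed to 8523 to 9654 TPM in liver, 6190 to 6281 TPM in bone marrow, 3210 to 3443 TPM in lung, 2611 to 2710 TPM in blood, 957 to 982 TPM in spleen and 676 to 686 TPM in lymph node. Bone marrow thus had more of this RNA than lung. The part of red cell RNA or of the immediate early and heat shock response in these organs' values was not tested.

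Hmgcs1, Idi1, Cyp51, Msmo1 and Insig1 were called higher in liver and also in lung. Both comparisons share the lymph node libraries, so their values are given side by side and nothing is read from the overlap. Hmgcs1, the HMG-CoA synthase at the start of the mevalonate route (chr13:119690379-119708260, plus strand), had 32.87, 35.20 and 32.90 TPM in liver and 29.62, 32.16 and 34.45 TPM in lung. In lymph node it had 20.79, 17.72 and 22.33 TPM, and no library of spleen, bone marrow or blood exceeded 23.27 TPM. Its changes from lymph node were 0.71 ± 0.11 in liver (SE; limma adjusted p = 1.31e-04) and 0.64 ± 0.11 in lung (SE; limma adjusted p = 1.68e-04). Cyp51, the lanosterol demethylase (chr5:4081145-4104746, minus strand), had 31.84 to 33.81 TPM in liver and 28.33 to 33.91 TPM in lung, whereas the other 12 libraries had 8.52 to 16.72 TPM. The changes were 1.33 ± 0.11 (SE; limma adjusted p = 3.14e-07) and 1.25 ± 0.11 (SE; limma adjusted p = 2.16e-07), and the overlapping gene Akap9, on the other strand, had 46.0 TPM in liver and 26.9 TPM in lung against 34.4 TPM in lymph node. Msmo1, the methylsterol monooxygenase of a later step, had 26.67 to 37.31 TPM in liver and 21.87 to 37.81 TPM in lung against 12.66 to 14.75 TPM in lymph node. It rose by 1.16 ± 0.19 in liver (SE; limma adjusted p = 3.03e-04) and 0.98 ± 0.19 in lung (SE; limma adjusted p = 6.72e-04). Idi1 and Insig1 rose by 0.91 ± 0.20 (SE; limma adjusted p = 0.00197) and 1.31 ± 0.15 (SE; limma adjusted p = 2.54e-06) in lung, less than in liver by value. The difference between liver and lung was not tested.

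These 5 genes kept their calls in both organs under every alternative tried, including T cell scaling and each fit without 1 library. As a description over the 6 organ means, their 10 pairwise Pearson correlations had a median of 0.91 (range 0.79 to 0.98), whereas all 435 pairs of the 30 genes had a median of 0.04. The organ means share libraries and scaling across genes, and the 5 genes were picked by their calls. Acly, Dhcr7 and Scd2 were called lower in both organs. Scd1 was the 1 gene called in opposite directions, lower in liver and higher in lung.

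**Figure D3:**
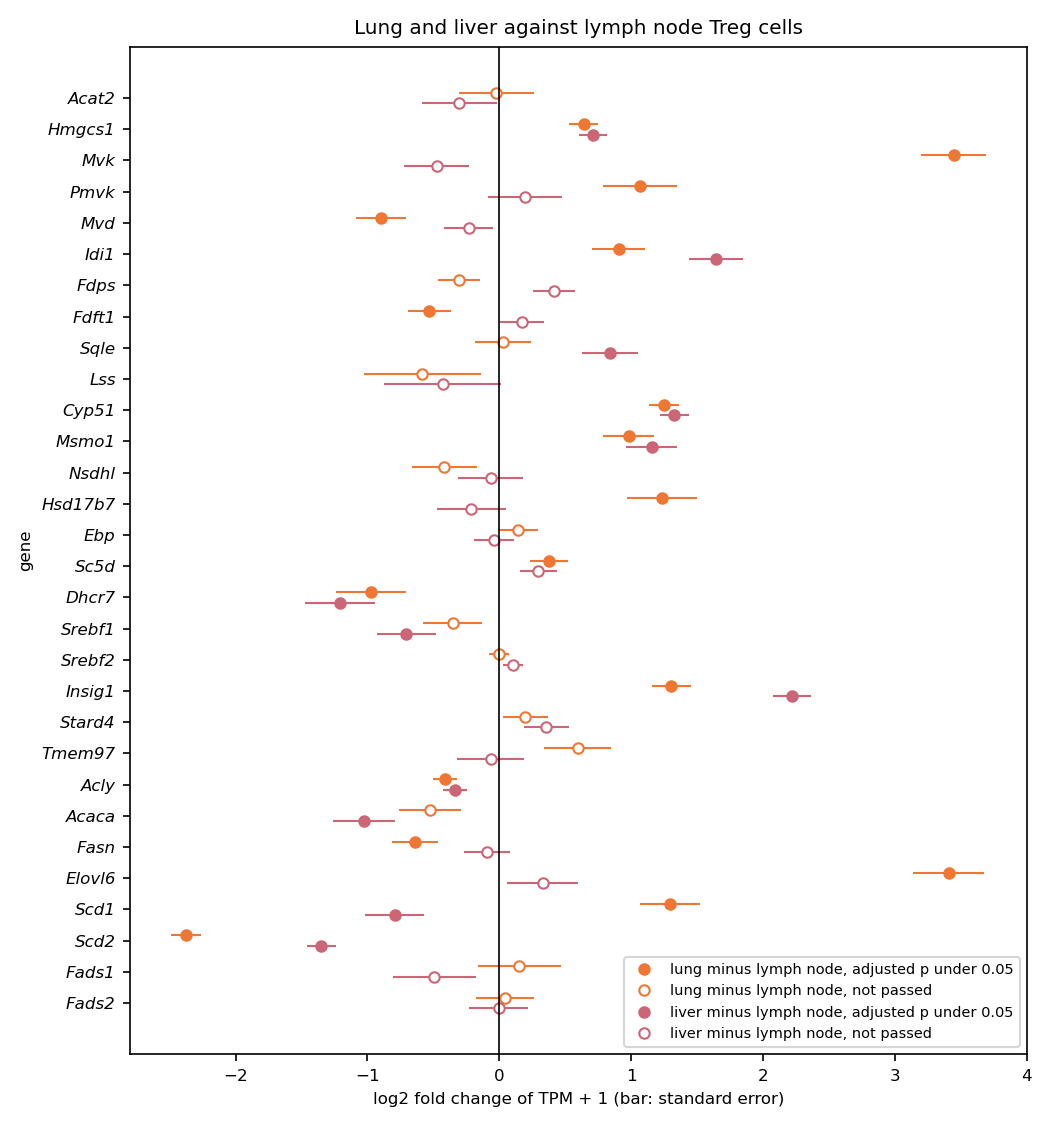
Difference from lymph node Treg cells in log2(TPM + 1) for each of the 30 genes (points; bars, SE from limma) in lung and in liver, with filled points for an adjusted p under 0.05. Hmgcs1, Idi1, Cyp51, Msmo1 and Insig1 are filled on the right in both organs, Mvk and Elovl6 lie above 3 in lung alone, and Scd1 is filled on opposite sides.

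Spleen Treg cells had few calls against lymph node: 3 genes were higher, against 4.44% of all genes, and 2 lower, against 9.87% of all genes. Scd1 had 20.97, 21.64 and 21.27 TPM in spleen, a change from lymph node of 1.2 ± 0.23 (SE; limma adjusted p = 0.00184). Scd2 had 34.78, 37.12 and 33.78 TPM, a change of -0.68 ± 0.11 (SE; limma adjusted p = 6.53e-04). The pair of desaturases thus moved in opposite directions here too, with no overlap between groups. The other calls were Fdps, the farnesyl diphosphate synthase (0.52 ± 0.16, SE; limma adjusted p = 0.0382), Msmo1 (0.62 ± 0.19, SE; limma adjusted p = 0.0429) and Srebf2 (-0.26 ± 0.07, SE; limma adjusted p = 0.0263). Fdps and Msmo1 each lost the call in 9 of 18 fits without 1 library, with limma adjusted p up to 0.171 and 0.181, and Srebf2 in 6 (up to 0.104). With T cell scaling 5 genes were higher, against 6.69% of all genes, and 1 lower, against 2.42%, as the median over all genes moved from -0.11 to 0.028. Beside these values, myeloid markers summed to 668 to 851 TPM in spleen. The 8 B and plasma cell markers summed to 616 to 673 TPM there against 132 to 143 TPM in lymph node, with 7 of 8 called higher. Erythroid markers summed to 812 to 928 TPM, with 8 of 8 called higher. The part of these other cells in the spleen values, Scd1 included, was not tested.

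Bone marrow Treg cells had 3 genes higher than lymph node, against 13.7% of all genes, and 2 lower, against 8.89% of all genes. Fads2 (chr19:10062765-10101746, minus strand) had 7.09, 6.36 and 6.33 TPM in bone marrow and was listed at 0.14, 0 and 0 TPM in lymph node (limma adjusted p = 6.39e-08). It stayed at or below 0.62 TPM in spleen, liver and lung, and only blood, at 1.91, 3.79 and 2.35 TPM, lay between. Since Fads2 passed the filter on low values through bone marrow and blood alone, its p-value adds no support to these levels. Fads1, the delta-5 desaturase close by on the same chromosome, did not pass, with 12.70, 12.99 and 12.85 TPM against 10.02, 9.94 and 8.63 TPM. Tmem97, a membrane protein known as the sigma-2 receptor and as a sterol-regulated gene, had 14.25, 12.89 and 16.68 TPM against 5.78, 5.45 and 5.37 TPM (1.25 ± 0.26, SE; limma adjusted p = 0.00163). Scd1 had 18.34, 18.86 and 20.09 TPM, higher by 1.05 ± 0.23 (SE; limma adjusted p = 0.00246), and Scd2 had 25.62, 21.18 and 23.92 TPM, lower by mean (-1.24 ± 0.11, SE; limma adjusted p = 3.65e-07). The groups of these 4 called genes did not overlap, which describes their values and adds no support to the calls.

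Cyp51 was lower in bone marrow by a small margin (-0.33 ± 0.11, SE; limma adjusted p = 0.0452), lost the call in 12 of 18 fits without 1 library (limma adjusted p up to 0.215), and had 0.32 with T cell scaling. On that scale 22 of the 30 genes were higher, against 48.2% of all genes, and 1, Scd2, lower, against 1.56%, as the median over all genes moved from -0.004 to 0.56. Beside these values, all 16 myeloid markers were called higher in bone marrow, as were 21 of 22 cell cycle genes, whose sum was 1477 to 1506 TPM against 627 to 647 TPM in lymph node. Erythroid markers summed to 3402 to 3504 TPM, and B and plasma cell markers to 534 to 579 TPM. The part of other cells and of cycling cells in the levels of Fads2, Tmem97 and Scd1 was not tested.

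**Figure D4:**
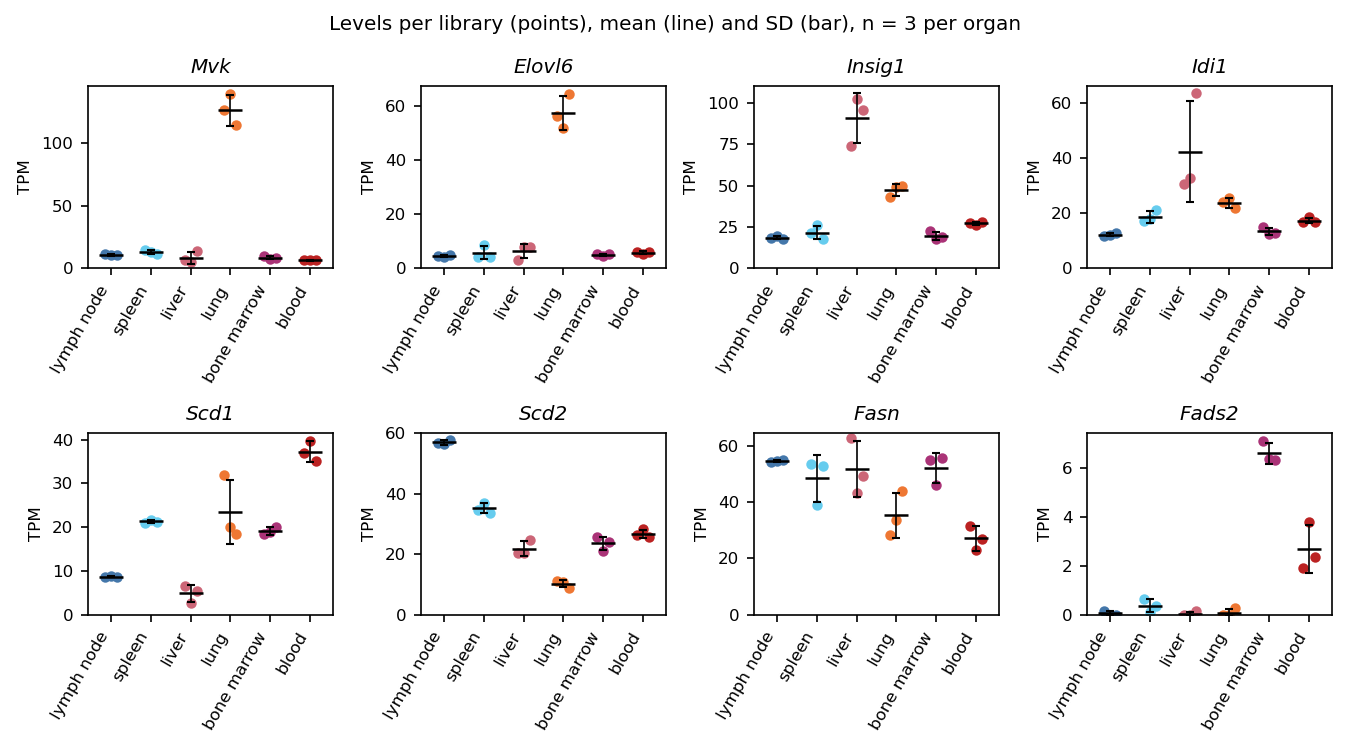
TPM of 8 genes in each library (points), with the mean (line) and SD (bar) of the 3 libraries per organ; each panel has its own axis from 0. Mvk and Elovl6 are high in lung alone, Insig1 and Idi1 are highest in liver, Scd1 is highest in blood and Scd2 in lymph node, and Fads2 is near 0 outside bone marrow and blood.

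Blood Treg cells had more lower than higher calls in each of the 5 comparisons. Against spleen 3 of the 30 genes were higher (20.1% of all genes) and 10 lower (15.3% of all genes). Against lymph node 5 were higher (16.4% of all genes) and 8 lower (21% of all genes). Against bone marrow 4 were higher (13%) and 9 lower (18.8%), and against liver 3 were higher (23.3%) and 10 lower (16.1%). Against lung 4 were higher (26.4%) and 12 lower (17.3%). The median changes of the 30 genes were -0.26, -0.29, -0.29, -0.23 and -0.27 in that order, beside medians over all genes of 0, -0.15, -0.11, 0.07 and 0.12. The 5 comparisons share the blood libraries.

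The excess of lower over higher calls was not present on the T cell scale, which raised the median of all genes in each comparison. Against spleen, 16 of the 30 genes were then higher (54.5% of all genes) and 0 lower (2.63%), and against lymph node 22 were higher (56.7%) and 0 lower (1.76%). Against bone marrow 9 were higher (27.6%) and 3 lower (8.76%), against liver 13 were higher (57.6%) and 2 lower (5.1%), and against lung 9 were higher (46.2%) and 5 lower (8.84%). In blood against lymph node the scaling moved the median of all genes from -0.15 to 0.74, and that of the 30 genes from -0.29 to 0.78. Relative to the median of all genes, that of the 30 went from -0.14 to 0.037 in this comparison. In the other comparisons it was below 0 on both scales: -0.26 and -0.18 against spleen, -0.19 and -0.11 against bone marrow, -0.30 and -0.27 against liver, and -0.39 and -0.34 against lung (TPM scale first). T cell markers were lower in blood than in lymph node for 20 of 20 genes and platelet markers higher for 8 of 8, with platelet sums of 2353 to 2393 TPM against 1.23 to 5.92 TPM. Cell cycle genes were lower in blood than in lymph node for 21 of 22, with sums of 258 to 273 TPM against 627 to 647 TPM, and for 22 of 22 against bone marrow. B and plasma cell markers were higher than in lymph node for 7 of 8, with sums of 544 to 564 TPM. Their part in the blood values was not tested.

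Scd1 had 36.98, 39.77 and 35.03 TPM in blood, above all other libraries, and was the 1 gene called higher against all 5 organs. Its changes were 0.78 ± 0.23 against spleen, 1.98 ± 0.23 against lymph node, 0.93 ± 0.23 against bone marrow and 2.77 ± 0.23 against liver (SE; limma adjusted p = 0.013, 3.22e-06, 0.00478 and 6.28e-08). The change of 0.68 ± 0.23 against lung (SE; limma adjusted p = 0.0225) lost its call without lung replicate 2 or 3 or blood replicate 1 or 2, with values down to 0.54 (limma adjusted p up to 0.0932). The order of organ means was blood, lung, spleen, bone marrow, lymph node and liver, and the lung libraries (18.49 to 31.92 TPM) spanned those of spleen and all but 1 of bone marrow. Fads2 was called higher in blood against spleen, lymph node, liver and lung (limma adjusted p from 7.98e-06 to 9.87e-05) and lower against bone marrow (-1.07 ± 0.22, SE; limma adjusted p = 0.00144), where a pseudocount of 0.1 ended the call.

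Sc5d, the lathosterol oxidase, had 37.94, 35.45 and 35.56 TPM in blood against 19.17, 24.81 and 17.71 TPM in spleen, higher by 0.80 ± 0.14 (SE; limma adjusted p = 2.89e-04). Msmo1 and Insig1 were higher in blood than in lymph node by 0.74 ± 0.19 (SE; limma adjusted p = 0.00623) and 0.53 ± 0.15 (SE; limma adjusted p = 0.00919). On every scale tried, blood had less of Insig1 than liver (-1.70 ± 0.15, SE; limma adjusted p = 1.17e-07) and less of Cyp51 than both liver (-1.33 ± 0.11, SE; limma adjusted p = 9.74e-08) and lung (-1.25 ± 0.11, SE; limma adjusted p = 1.75e-07). It also had less of Mvk (-4.12 ± 0.25, SE; limma adjusted p = 1.63e-09) and of Elovl6 (-3.11 ± 0.27, SE; limma adjusted p = 1.22e-07) than lung. Scd2 was higher in blood than in lung by 1.31 ± 0.11 (SE; limma adjusted p = 1.03e-07) and lower than in lymph node by mean (-1.07 ± 0.11, SE; limma adjusted p = 1.31e-06), the latter 0.04 with T cell scaling.

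Stard4, a cytosolic sterol carrier, had 11.14, 10.28 and 9.87 TPM in blood, below all other libraries, and was called lower against all 5 organs (limma adjusted p from 2.39e-04 to 0.0451). The call against bone marrow (-0.48 ± 0.17, SE; limma adjusted p = 0.0451) was lost in 10 of 18 fits without 1 library, with limma adjusted p up to 0.124. With T cell scaling Stard4 was 0.43 against lymph node and 0.03 against spleen. Fasn had 31.73, 22.92 and 26.93 TPM in blood and was called lower against lymph node (-0.99 ± 0.18, SE; limma adjusted p = 3.04e-04), spleen, bone marrow and liver. It was 0.11 against lymph node and 0.07 against spleen with T cell scaling, and stayed lower against bone marrow on every scale. Fdft1 and Srebf2 were also called lower against 4 of 5 organs, and on the T cell scale the values of Srebf2 were above 0 in all 4 (0.13 to 0.76), as were those of Fdft1 in 3 (0.11 to 0.58). Of the 13 blood and lymph node calls, 4 held under every alternative (Msmo1, Insig1, Scd1 and Fads2, all higher), and 0 of the lower ones did. Among the lower ones, Mvk lost its call in 12 of 18 fits without 1 library (limma adjusted p up to 0.121), Fdft1 in 8 (up to 0.128) and Dhcr7 in 5 (up to 0.08). Against lung, 8 of 16 calls held under every alternative, namely Mvd, Scd2 and Fads2 higher and Cyp51, Hsd17b7, Mvk, Pmvk and Elovl6 lower.

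**Figure D5:**
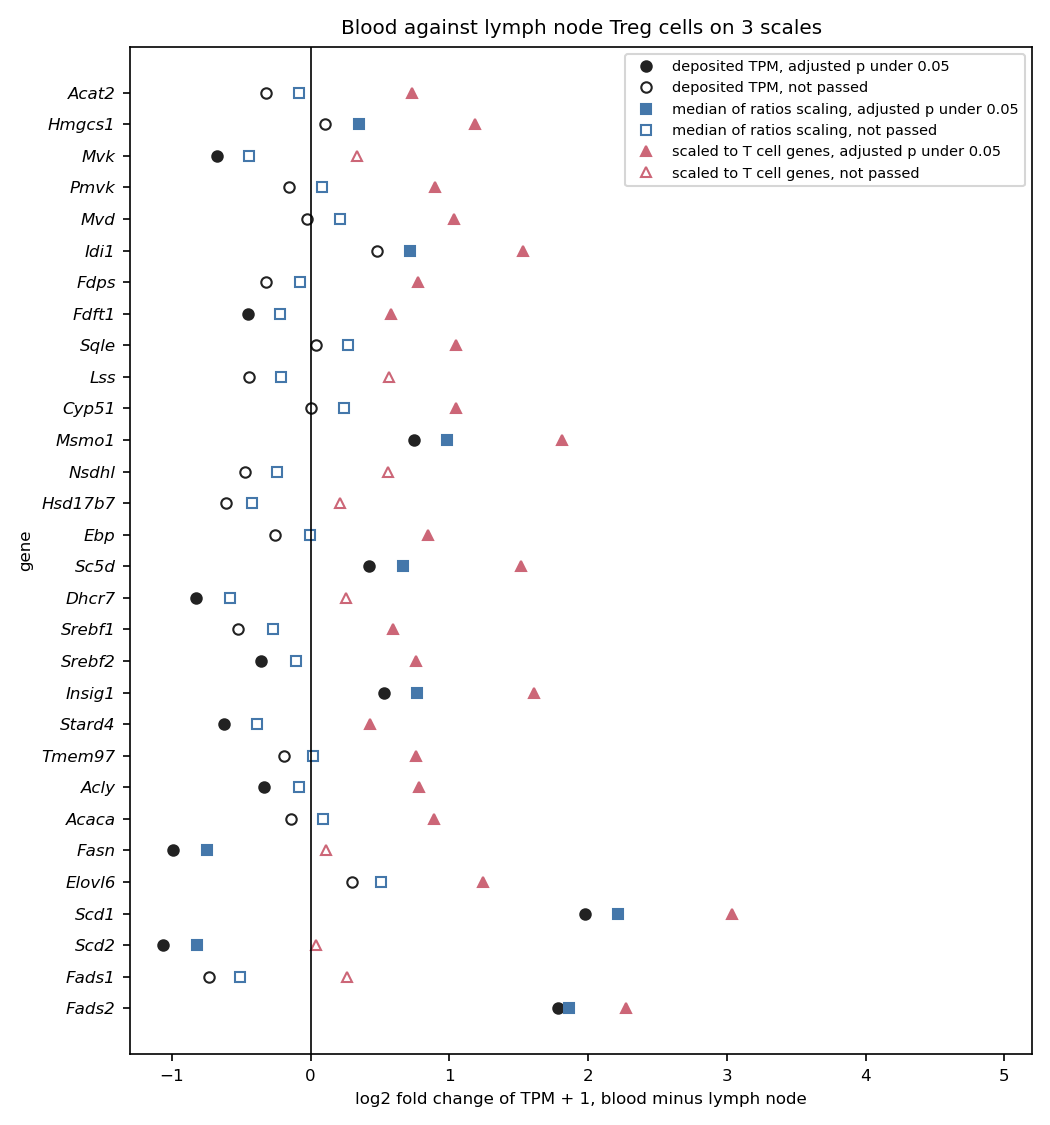
Difference between blood and lymph node Treg cells in log2(TPM + 1) for each of the 30 genes on the deposited scale (circles), after median of ratios scaling (squares) and after scaling to 20 T cell genes (triangles); filled points have a limma adjusted p under 0.05. T cell scaling moves all 30 genes to the right, and Scd1, Fads2, Msmo1, Insig1 and Sc5d are filled on the right on all scales.

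Other genes of the pathways, from lists of 14 further sterol and isoprenoid genes, 25 fatty acid and glycerolipid genes and 10 genes of SREBP processing, were counted in the same fit. In lung against lymph node, 1 of 14 sterol genes was higher and 4 lower, 8 of 23 tested fatty acid and glycerolipid genes were higher and 6 lower, and 3 of 10 SREBP processing genes were lower. Of all genes 14.9% were higher and 27.4% lower in this comparison, so the shares that were lower lay near that of all genes. The median changes of the 3 lists were -0.22, 0.07 and -0.22, beside -0.20 over all genes. In liver the counts were 2 higher and 5 lower, 4 higher and 7 lower, and 4 lower, against 9.45% higher and 21.6% lower of all genes. The median changes were -0.39, -0.31 and -0.21, beside -0.19 over all genes. Lbr, which carries a sterol reductase domain, averaged 155.7 TPM in lung and 174.0 TPM in liver against 130.1 TPM in lymph node (limma adjusted p = 0.00829 and 3.18e-04). Tm7sf2, the other gene for that reductase step, averaged 4.72 ± 0.51 TPM in lung against 18.6 ± 2.18 TPM in lymph node (SD, n = 3; limma adjusted p = 4.04e-06). Insig2, the second Insig gene, averaged 13.1 ± 7.99 TPM in lung against 34.3 ± 5.88 TPM (SD, n = 3; limma adjusted p = 0.00222), the reverse of Insig1. Mbtps1, the protease that makes the first cut in SREBPs, averaged 42.5 TPM in liver and 56.2 TPM in lung against 79.5 TPM in lymph node (limma adjusted p = 3.71e-05 and 0.00229).

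The widest range among these genes was that of Dgat1, which joins a fatty acid to diacylglycerol to make triglyceride. It had 1876, 1928 and 1987 TPM in lung, 488.4, 467.8 and 419.1 TPM in liver, 149.8 to 163.4 TPM in bone marrow, and 43.92 to 67.50 TPM in the other 9 libraries. Lung exceeded lymph node by 5.25 ± 0.08 and liver by 3.17 ± 0.08 (SE; limma adjusted p = 2.54e-16 and 8.71e-14), and no library of lung, liver or bone marrow overlapped the rest. Its neighbour Hsf1 ranged from 45.8 to 74.8 TPM by organ, highest in lymph node. The annotation and the treatment of reads that map to several places are not given in the sources used here, so their part in this level could not be checked from TPM. Dgat2, the other enzyme of that step, averaged 89.4 ± 7.22 TPM in lung and 4.64 ± 0.49 TPM in lymph node (SD, n = 3; limma adjusted p = 2.50e-09), and 23.8 TPM in bone marrow. Elovl5, an elongase of polyunsaturated fatty acids named after its values were seen, averaged 386.9 ± 40.9 TPM in lung and 95.5 ± 4.05 TPM in lymph node (SD, n = 3).

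Lists of uptake, efflux and oxidation genes were counted in the same way. Against lymph node, 16.4% of all genes were higher and 21% lower in blood. The shares were 13.7% and 8.89% for bone marrow, and 14.9% and 27.4% for lung. Of 6 fatty acid uptake genes, 4 were higher and 2 lower in lung than in lymph node, 4 higher in bone marrow, and 3 higher and 1 lower in blood. Lpl, the lipoprotein lipase, averaged 46.3 ± 3.32 TPM in lung and 20.1 ± 1.47 TPM in blood against 0.08 TPM in lymph node (SD, n = 3). Cd36, a fatty acid receptor of myeloid cells and platelets among others, averaged 30.5 ± 2.42 TPM in blood, 15.7 ± 0.04 TPM in lung and 0.42 TPM in lymph node (SD, n = 3). Of 9 genes of sterol sensing by LXR and of efflux, 3 were higher in blood than in lymph node, with Cyp27a1, the sterol 27-hydroxylase, at 60.3 ± 7.51 TPM in blood and at most 8.21 TPM by mean elsewhere. Of 14 genes of lipoprotein uptake and sterol storage or transfer, 13 were tested, and 5 were higher and 3 lower in blood than in lymph node. Scarb1, the HDL receptor, averaged 37.3 ± 1.88 TPM in blood against 7.51 ± 0.22 TPM (SD, n = 3), and Gramd1a, which moves cholesterol from the plasma membrane, averaged 91.3 ± 13.9 TPM in lung against 382.9 ± 7.38 TPM. Of 16 fatty acid oxidation genes, 9 were lower in lung than in lymph node, and 9 lower and 1 higher in blood. Decr1, the dienoyl-CoA reductase, averaged 4.35 ± 1.90 TPM in lung against 13.6 ± 1.49 TPM (SD, n = 3; limma adjusted p = 9.74e-04). Sums of myeloid markers in lung, blood and bone marrow, and of platelet markers in blood, are given above. The part of these cells in the values of the uptake, efflux and oxidation genes was not tested.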

How the data were processed

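Poly(A) RNA was sequenced from Treg cells of 6 mouse organs with 3 libraries each, made with a directional kit per the labels' protocols. The authors deposited 1 table of TPM values per library for 55487 Ensembl gene IDs. STAR, RSEM and the mm10 build are named in the submitters' processing notes, without versions. The annotation used, filters and the use of strand are not given in the sources used here. TPM keeps no read depth, so no counting interval can be given. Symbols and coordinates came from GENCODE M21 names and annotation, which matched 55141 IDs and all 30 genes. Genes that overlap on either strand share uncertain values.

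Groups follow the labels. The 16694 genes that reached a mean of 1 TPM in 1 organ or more were tested with limma 3.58.1 in R 4.3.3 on log2(TPM + 1), with 1 mean per organ, trend and robust moderation, an F test and 9 contrasts (blood against each organ, and each other organ against lymph node), and Benjamini-Hochberg adjustment over all genes tested. The procedure was tested on simulated data. Alternatives were a pseudocount of 0.1, no filter, scaling to 20 T cell genes, median of ratios scaling over 6067 genes of at least 10 TPM in all libraries, fits of the organs compared alone, a replicate block and leaving out each library. A fit without the bone marrow and blood libraries was added after seeing the data.

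The 30 genes and the other lists were chosen with earlier results of these data known. All 30 are named; of each other pathway list the genes with the highest mean and the widest range could be named, up to 2 of each. Elovl5 was named after its values were seen.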

Additional observations from a re-analysis of the deposited data

How the results depend on the processing

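Scaling to 20 T cell genes was the one alternative that reversed a value, and it changed most counts because it moved the median of all genes (from -0.15 to 0.74 in blood against lymph node). Of the 80 single-gene values followed, 18 turned sign under it. Values against lymph node became 0.22 for Acly and 0.054 for Fdft1 in lung, 0.32 for Cyp51 in bone marrow, and in blood 0.25 for Dhcr7, 0.11 for Fasn, 0.58 for Fdft1, 0.34 for Mvk, 0.035 for Scd2, 0.76 for Srebf2 and 0.43 for Stard4. In blood against spleen they became 0.066 for Fasn, 0.22 for Fdft1, 0.029 for Fdps and 0.027 for Stard4, against liver 0.11 for Fdft1 and 0.33 for Srebf2, against bone marrow 0.16 for Srebf2 and against lung 0.13 for Srebf2. Another 16 kept their sign without passing. Counts of genes higher under T cell scaling were 16 in blood against spleen, 22 against lymph node, 9 against bone marrow, 13 against liver and 9 against lung, with 0, 0, 3, 2 and 5 lower. Against lymph node they were 5 higher and 1 lower in spleen, 22 and 1 in bone marrow, 10 and 3 in liver, and 16 and 1 in lung. The shares of all genes on this scale are given with each comparison above.

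With median of ratios scaling, 5 genes were higher and 6 lower in blood than spleen (22.1% and 13% of all genes). In blood 2 were lower than in lymph node (11.2%). Against lymph node, 10 were higher and 3 lower in liver (12.8% and 13.3%), and 3 lower in lung (19.3%). In spleen 5 were higher and 1 lower (6.25% and 3.54%), and in bone marrow 1 was lower (6.61%). Fits of the organs compared alone gave 8 higher and 5 lower in bone marrow than lymph node (24.8% and 24.1% of all genes). They gave 5 higher and 6 lower in spleen (7.29% and 19.6%), and 3 lower in liver (16%). In blood 15 were lower than in bone marrow (34.6%) and 15 lower than in lymph node (40.7%). Without a filter on low values 1 gene was higher in spleen (2.39% of all genes) and 1 lower in bone marrow (5.33%) than lymph node. The fit without bone marrow and blood libraries, added after seeing the data, gave 1 higher and 1 lower in spleen (2.9% and 5.36% of all genes). A pseudocount of 0.1 kept all counts within 1.5 times. The causes of these moves were not tested.

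With the replicate number as a replicate block, 1 gene was higher in spleen (4.21% of all genes) and 1 lower in bone marrow (8.55%) than lymph node. In that fit 6 single-gene values lost their call, and none reversed. Deviations of same-numbered libraries of different organs had correlations from -0.034 to 0.03 over 45 pairs (median 0.007). For different numbers they were -0.035 to 0.04 over 90 pairs (median -0.002). Both ranges lay near 0, so the numbers were not treated as pairs. Since 9 of 18 libraries were closest to their own number, this does not show that they were unpaired.

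Leaving out 1 library at a time reversed none of the 80 values. Counts ranged from 25 to 27 for the F test, from 10 to 12 higher and 5 to 7 lower in lung than lymph node, 6 to 7 and 5 to 7 in liver, 1 to 5 and 1 to 4 in spleen, and 3 to 3 and 1 to 3 in bone marrow. For blood they ranged from 3 to 4 higher and 5 to 11 lower against spleen, 4 to 6 and 5 to 9 against lymph node, 2 to 5 and 7 to 12 against bone marrow, 3 to 5 and 10 to 12 against liver, and 3 to 5 and 9 to 13 against lung. Depth cannot be read from TPM, so how far it limits genes under 1 TPM, such as Fads2 outside bone marrow and blood, is unknown.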
